A study of Mus with 14 samples.

Results

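The 9 genes described here are effector genes of mast cells and basophils: Ms4a2 and Fcer1a for the IgE receptor, Hdc and Slc18a2 for histamine, and the proteases Cpa3, Mcpt8, Prss34, Cma1 and Gzmb. They were listed by name, and each was found by its symbol among the 32285 genes of all 14 libraries. Single-cell RNA was measured in Lin-Kit+CD45.2+ bone marrow cells, that is, donor-derived blood progenitors, with 1 library per mouse. Every mouse was an aged, lethally irradiated CD45.1+ secondary transplant host harvested 20 weeks after it received marrow from a primary recipient, and the primary recipients had been given poly(I:C), the agent that switches on the Mx-Cre recombinase. The control group was MxCre, with 3 mice. The Dnmt3a group had 4, and on the same genotype name the label adds Tnfr1KO in 3 further mice and Tnfr2KO in 4. The labels give these genotype names alone, without the Dnmt3a allele, and do not link the mice to primary recipients, so donors could be shared within a group and p-values measure only the spread between these mice.

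Mast cells and basophils bind IgE through a surface receptor whose alpha chain (Fcer1a) holds the antibody and whose beta chain (Ms4a2) amplifies the signal. On activation they release histamine, which histidine decarboxylase (Hdc) makes and the vesicular transporter VMAT2 (Slc18a2) loads into granules, together with granule proteases. Mcpt8 and Prss34 are basophil proteases in the mouse, Cma1 is a mast cell chymase, Cpa3 is a carboxypeptidase that both lineages make early, and Gzmb is a granzyme best known from cytotoxic lymphocytes that some mast cells also store.

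After filtering, 1924 to 7265 cells per library remained (66895 in all), with 5.77e+07 to 1.46e+08 UMIs (unique molecular identifiers, the counted RNA molecules) per library. Median UMIs per cell ranged from 10548 to 39086. In Dnmt3a replicate 1, 26.5% of barcodes passed the filters, the lowest share of the 14 libraries. No 2 libraries shared more than 17 barcodes of kept cells. Of the targeted genes, Tnfrsf1b was lower in Dnmt3a;Tnfr2KO than in Dnmt3a, at 5.07 ± 0.531 (SD, n = 4) against 13.7 ± 1.33 CPM (n = 4; log2 difference -1.43, Benjamini-Hochberg adjusted p = 5.76e-04, edgeR's quasi-likelihood test). Tnfrsf1a was at 38.2 ± 4.14 CPM (n = 3) in the libraries labelled Dnmt3a;Tnfr1KO against 43.6 ± 9.30 in Dnmt3a (n = 4), a difference within the spread (adjusted p = 0.60 by the same test), so this group is called Tnfr1KO-labelled below. Counts from the 3' end of a transcript need not show a deletion elsewhere in it.

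In the GRCm38 assembly the genes lie on 6 chromosomes. Fcer1a is on chromosome 1 (173221269 to 173227232), Hdc on chromosome 2 (126593659 to 126624025), Cpa3 on chromosome 3 (20215616 to 20242209) and Prss34 on chromosome 17 (25298394 to 25300168). Both Ms4a2 (11615517 to 11623790) and Slc18a2 (59260878 to 59296012) are on chromosome 19. Cma1 (55941451 to 55944675), Mcpt8 (56082163 to 56085499) and Gzmb (56258836 to 56262334) lie within 320.884 kb of chromosome 14, in a block of 15 protein-coding genes that holds other mast cell proteases and granzymes. Reads that fit several members of these families can be split or dropped by the counting, so the levels of Cma1, Mcpt8 and Gzmb are uncertain to that extent.

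Cells were sorted into classes by marker genes. A cell was called basophil/mast cell progenitor-like when it had a UMI for at least 4 of 10 markers (Gata2, Cd200r3, Cd200r4, Cyp11a1, Grm6, Csrp3, Il4, Rgs13, Slc6a4 and Il1rl1), none of which is among the 9 genes. The class held 756 cells, 1.13% of all kept cells, with 21 to 127 cells per library. The 10 genes with the highest fold over other cells were Prss34, Cma1, Ms4a2, Mcpt8, Cpa3, Fcer1a, Gzmb, Csrp3, Mcpt4 and Prg2, of which 7 are described here. Csrp3 is a marker of the class and Prg2 one of the eosinophil list. In 616 of the 756 cells the most detected of the other marker sets was that of granulocyte progenitors. The class rule was applied first, whichever set had more markers. Cells led by that granulocyte set (Elane, Mpo, Prtn3 and others) were split into a Cebpe-positive gate (at least 2 Cebpe UMIs), a Gata2-positive gate (at least 2 Gata2 UMIs without Cebpe) and a Gata2-low gate. These 3 gates are named by their rule only, because Ms4a2 and Cpa3 led the Gata2-positive gate.

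**Figure D1:**
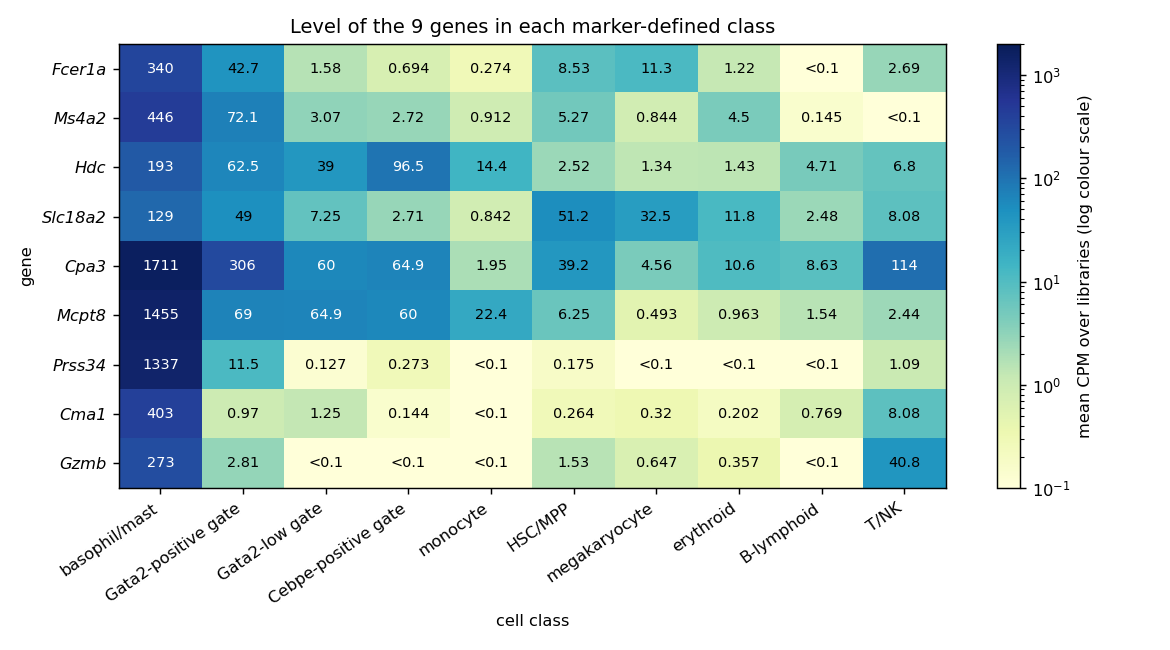
Mean CPM (a gene's UMIs over all UMIs of a class and library, in the usual depth-scaled unit) of each gene in 10 classes, over the libraries with at least 20 cells of the class, on a logarithmic colour scale with the value printed in each cell. Each gene had its highest mean in the basophil/mast cell progenitor-like class, and the second highest class differed between genes: the Cebpe-positive gate for Hdc, HSC/MPP for Slc18a2 and, from 2 libraries, T/NK for Gzmb.

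Both IgE receptor genes were highest in the basophil/mast cell progenitor-like class and next highest in the Gata2-positive gate. Ms4a2 averaged 446 ± 103 CPM in the class (SD over 14 libraries, range 257 to 608) and 72.1 ± 18.9 CPM in the Gata2-positive gate (34.1 to 97.8). The 2 ranges did not overlap, and every other class averaged 5.27 CPM or less. Fcer1a averaged 340.2 ± 149.9 CPM in the class (123 to 567) and 42.7 ± 22.5 CPM in the gate (12.4 to 90.3), again without overlap. The next class was the megakaryocyte progenitor-like class, at 11.3 ± 8.60 CPM over 10 libraries, with a range that overlapped with those of the gate and of HSC/MPP (8.53 CPM). A UMI of Ms4a2 was found in 83.1% of cells of the class against 2.97% of erythroid progenitor-like cells, which should lack it. After thinning each cell to 5000 UMIs these shares were 70.0% and 1.55%, where the median depths before thinning were 17607.5 and 20173 UMIs per cell.

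The histamine pair did not follow each other across classes. Hdc averaged 193 ± 60.3 CPM in the basophil/mast cell progenitor-like class and 96.5 ± 18.1 CPM in the Cebpe-positive gate, and the ranges of these 2 overlapped. The Cebpe-positive gate, which had many more cells than the class, held 63.5% of all Hdc UMIs and the basophil/mast cell progenitor-like class 3.85%. Slc18a2 averaged 129 ± 21.8 CPM in the class and only 2.71 CPM in the Cebpe-positive gate. Its next highest levels were 51.2 ± 12.8 CPM in HSC/MPP, 49.0 ± 11.3 CPM in the Gata2-positive gate and 32.5 ± 11.05 CPM in the megakaryocyte progenitor-like class, 3 classes whose ranges overlapped. Over 121 sums of a library and class, log2(CPM + 1) of Hdc and Slc18a2 had a Pearson correlation of 0.13, the lowest of the 36 pairs of genes, while Hdc and Mcpt8 had the highest, 0.90. These points share mice and depth, so the values are descriptions.

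Among the proteases, Cpa3 had the highest mean in the basophil/mast cell progenitor-like class and in the Gata2-positive gate. It averaged 1711 ± 475 CPM in the basophil/mast cell progenitor-like class, 306 ± 90.5 CPM in the Gata2-positive gate, 64.9 and 60.03 CPM in the Cebpe-positive and Gata2-low gates and 39.2 CPM in HSC/MPP. Mcpt8 averaged 1455 ± 977 CPM in the class. It then stayed level across the Gata2-positive, Gata2-low and Cebpe-positive gates, at 69.0, 64.9 and 60.03 CPM with overlapping ranges, and was at 0.963 CPM in erythroid progenitor-like cells. The Cebpe-positive gate held 37.6% of all Mcpt8 UMIs and the basophil/mast cell progenitor-like class 21.2%. Of erythroid progenitor-like cells 1.58% had an Mcpt8 UMI, against 60.2% of the cells in the Cebpe-positive gate and 61.1% of those in the class, and thinned to 5000 UMIs the shares were 0.370%, 19.8% and 41.8%.

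Prss34, Cma1 and Gzmb were narrow. Prss34 averaged 1337 ± 1307 CPM in the class and 11.5 CPM in the Gata2-positive gate, and 90.3% of its UMIs lay in the class. Only 21.3% of the cells of the class had a Prss34 UMI, so a few cells carried most of it. Cma1 averaged 403 ± 572 CPM in the class, with 65.4% of its UMIs there and 26.2% in cells without a class. Gzmb averaged 273 ± 159 CPM in the class, with 57.9% of its UMIs there and 28.3% in cells without a class. Its next highest class was T/NK, at 40.8 CPM over the 2 libraries with enough such cells. That class also held Cpa3, at 113.5 CPM (30.6 and 196.5), and Cma1, at 0 and 16.2 CPM (6 UMIs). For Cma1 the second class was macrophage, at 0 to 72.4 CPM over 3 libraries (48 UMIs over all macrophage cells). In each of these 2 classes 1 cell was high for Cma1, with at least 5 UMIs and 500 CPM, so these levels rest on few cells. The SD of Prss34 was about as large as its mean and that of Cma1 larger, and the lowest library had no Prss34 UMI in the class.

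All 9 genes were higher in cells with 4 class markers than in cells with 3, and beyond that they differed. From 3 to 6 markers, Ms4a2 went from 127 to 622 CPM and Cpa3 from 341 to 2806 CPM, and Prss34 went from 29.3 to 4399.7 CPM. Slc18a2 went from 59.5 to 153 CPM over the same steps. Gzmb went from 27.8 CPM with 3 markers to 300.3 with 5. It was then at 290.2 CPM with 6, 60.4 with 7 (12 cells) and 0 with 8 (5 cells). With 5, 6, 7 and 8 markers Cma1 was at 764, 767, 254 and 2386 CPM. Cpa3 was at 2332, 2806, 2090 and 8108 CPM in the same order. From 0 to 2 markers Hdc went from 54.4 to 38.6 CPM and Mcpt8 from 43.4 to 28.2 CPM. The cells with 3 markers (2168 cells) stood just outside the class and those with 4 (489 cells) just inside it. The depth was similar from 3 to 6 markers, with medians of 17112 to 18566 UMIs per cell. It was 22269 with 0 markers, and 6323 and 7555 with 7 and 8, so the levels at 7 and 8 markers rest on few and shallow cells.

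For 8 of the 9 genes, those with the most similar pattern were taken as the 2 genes outside the 9 with the highest Pearson correlation of log2(CPM + 1) over the same 121 points, among 10226 genes. For Ms4a2 they were Gm11697 and Cdh1 (both 0.88), for Fcer1a Atp8b5 (0.89) and Fgf3 (0.87), for Hdc Far2 (0.89) and Rab44 (0.88), and for Slc18a2 Gata2 (0.95) and Slc22a3 (0.90). Among the proteases they were Gm11697 (0.90) and Cd200r4 (0.87) for Cpa3, Cdh1 (0.94) and Cd200r3 (0.93) for Prss34, Cd200r3 (0.88) and Il4 (0.85) for Cma1, and Cd200r3 (0.91) and Cyp11a1 (0.90) for Gzmb. Gata2, Cd200r3, Cd200r4, Il4 and Cyp11a1 are markers that defined the class, so their likeness follows in part from the rule.

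Within single cells, Prss34 was rarely high together with Cma1 or Gzmb. A cell was counted as high for a gene when it had at least 5 UMIs and at least 500 CPM of it. Of 103 cells high for Prss34 and 155 high for Cma1, 2 were high for both, and of 185 cells high for Gzmb none was also high for Prss34. Cma1 and Gzmb were high together in 66 cells, 42.6% of the cells high for Cma1 and 35.7% of those high for Gzmb. Of the 103 cells high for Prss34, 97 were also high for Cpa3, 87 for Mcpt8, 75 for Ms4a2 and 66 for Fcer1a. Of the 155 cells high for Cma1, 136 were also high for Cpa3, 58 for Fcer1a, 47 for Mcpt8 and 11 for Ms4a2.

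Leaving out the 2 cells high for both, the Prss34-high cells had a median of 13396 UMIs. Of these cells 96.0% had Csrp3, 62.4% Cd200r3 and 59.4% Il1rl1, the IL-33 receptor. Grm6, the metabotropic glutamate receptor of the class list, was detected in 18.8%. The Cma1-high cells had a median of 3663 UMIs, with Il1rl1 in 74.5%, Cd200r3 in 45.8%, Csrp3 in 11.1% and Grm6 in none. The Gzmb-high cells without high Cma1 had a median of 5768 UMIs. They had Il1rl1 in 68.9%, Csrp3 in 71.4%, Cd200r3 in 4.20% and Grm6 in none. Cyp11a1 was found in 77.2%, 72.5% and 66.4% of the 3 sets in that order. The rule asks for 5 UMIs, so it reaches lower levels in deep cells than in shallow ones, and the 3 sets differ in depth. The shares with a marker and the shares in the class depend on depth as well. Over all UMIs of each set, Il1rl1 was at 78.7, 594 and 286 CPM and Csrp3 at 693, 41.4 and 331 CPM. Cd200r3 was at 162, 178 and 9.37 CPM in the same order. Of the Prss34-high cells 78.2% fell in the basophil/mast cell progenitor-like class, against 52.3% of the Cma1-high cells and 47.1% of the Gzmb-high cells without high Cma1. The class held 79 of the Prss34-high cells and 80 of the Cma1-high cells.

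**Figure D2:**
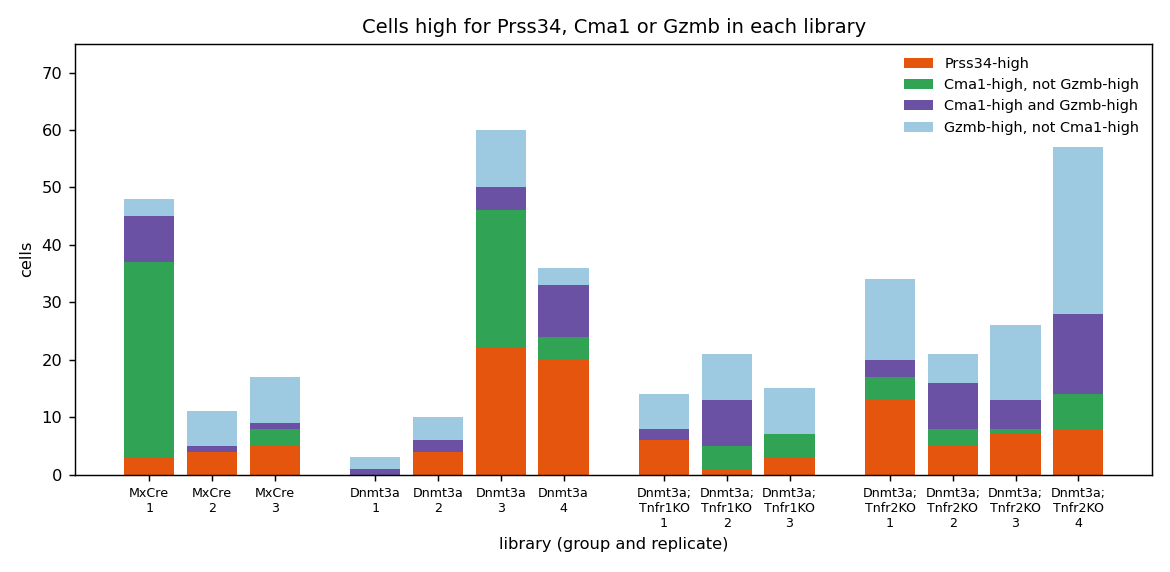
Number of cells per library (bars, by group and replicate) that were high for Prss34, for Cma1 without Gzmb, for Cma1 and Gzmb, or for Gzmb without Cma1, leaving out the 2 cells high for Prss34 and Cma1. The counts of Cma1-high cells (both Cma1 colours) varied widely within groups: they numbered 42 in MxCre replicate 1 and 28 in Dnmt3a replicate 3, and 1 each in MxCre replicate 2 and Dnmt3a replicate 1.

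The Prss34-high cells numbered 3, 4 and 5 in the MxCre libraries, 0, 4, 22 and 20 in Dnmt3a, 6, 1 and 3 in the Tnfr1KO-labelled libraries and 13, 5, 7 and 8 in Dnmt3a;Tnfr2KO. The Cma1-high cells numbered 42, 1 and 4 in MxCre, 1, 2, 28 and 13 in Dnmt3a, 2, 12 and 4 in the Tnfr1KO-labelled libraries and 7, 11, 6 and 20 in Dnmt3a;Tnfr2KO. All groups overlapped in both counts. The Prss34 and Cma1 levels of a library thus rest on 0 to 22 and 1 to 42 such cells.

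The share of basophil/mast cell progenitor-like cells was compared first, since most UMIs of the narrow genes lay in them. It was 1.70%, 0.925% and 0.585% in the MxCre libraries, 1.66%, 1.60%, 2.32% and 1.20% in Dnmt3a, 0.341%, 0.865% and 1.003% in the Tnfr1KO-labelled libraries and 0.674%, 1.17%, 0.492% and 1.69% in Dnmt3a;Tnfr2KO. The 4 Dnmt3a libraries lay above all 3 Tnfr1KO-labelled ones, and the other groups overlapped. The difference of Tnfr1KO-labelled from Dnmt3a was -0.957 percentage points (p = 0.0571 by an exact two-sided permutation test, the smallest p that 3 against 4 mice allow; adjusted over 4 comparisons, 0.229). The differences were 0.623 points for Dnmt3a from MxCre (exact permutation p = 0.229), -0.686 for Dnmt3a;Tnfr2KO from Dnmt3a (exact permutation p = 0.171) and 0.272 for Dnmt3a;Tnfr2KO from Tnfr1KO-labelled (exact permutation p = 0.571), with adjusted values of 0.305, 0.305 and 0.571. None passed the threshold of 0.05.

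Summed over all kept cells and scaled by edgeR's TMM, Fcer1a and Slc18a2 were lower in every Dnmt3a library than in any MxCre library. Neither passed the adjusted test. Levels from here on are CPM on edgeR's TMM-scaled library sizes, except in thinned or pooled cells, where they are CPM over all UMIs of those cells. Fcer1a was at 10.8, 8.43 and 8.39 CPM in MxCre and at 3.83, 5.02, 6.04 and 7.83 CPM in Dnmt3a (log2 difference -0.70, SE 0.27, adjusted p = 0.14 by edgeR's quasi-likelihood test). Slc18a2 was at 19.6, 23.6 and 29.7 CPM in MxCre and at 17.03, 16.9, 10.9 and 6.32 CPM in Dnmt3a (-0.93, SE 0.30, adjusted p = 0.0997 by the same test). As plain CPM, without TMM scaling, the 2 groups overlapped for both genes. Fcer1a was then at 8.67 CPM in Dnmt3a replicate 4 against 8.59 in MxCre replicate 2. Slc18a2 was at 20.0 CPM in Dnmt3a replicate 1 against 18.9 in MxCre replicate 1. On TMM-scaled levels without the basophil/mast cell progenitor-like cells, Slc18a2 was at 18.4, 22.8 and 29.2 against 15.5, 16.0, 9.17 and 4.46 CPM, again without overlap. The make-up of the libraries moved with these sums. HSC/MPP-like cells, where Slc18a2 was next highest, were 24.4% ± 12.4 of the kept cells in MxCre (SD, n = 3) and 6.90% ± 4.31 in Dnmt3a (SD, n = 4), without overlap. Megakaryocyte progenitor-like cells, the third class for Fcer1a, were 2.84% ± 1.11 and 0.749% ± 1.03, with 1 Dnmt3a library inside the MxCre range. The part of these shares in the summed levels was not tested, and in such sums fewer cells of a type and less RNA per cell cannot be told apart. Of the 9 genes 0 were called by edgeR in this comparison, where 2.38% of all genes were called. At an unadjusted p below 0.05 there were 2, Fcer1a and Slc18a2, and 3660 of all 15640 genes. DESeq2, which called 10.9% of all genes, called 1, Slc18a2 (adjusted p = 0.0243).

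The Dnmt3a libraries also entered the comparisons with both receptor groups, so the 3 comparisons are not independent and their values are set side by side. On the same TMM-scaled levels, Fcer1a was at 6.49, 6.42 and 4.33 CPM in the Tnfr1KO-labelled libraries, within the Dnmt3a range. It was at 8.18, 5.64, 9.60 and 12.4 CPM in Dnmt3a;Tnfr2KO, where 3 of 4 libraries lay above all Dnmt3a libraries (log2 difference 0.66, SE 0.25, adjusted p = 0.15 by edgeR's quasi-likelihood test). Slc18a2 was at 6.12, 13.01 and 10.2 CPM in the Tnfr1KO-labelled libraries and at 12.5, 14.3, 11.6 and 14.6 CPM in Dnmt3a;Tnfr2KO, so both groups stayed below every MxCre library. In Tnfr1KO-labelled against Dnmt3a, edgeR called 0 of the 9 genes (0.448% of all genes), with 0 at an unadjusted p below 0.05 and 0 by DESeq2 (6.14% of all genes). In Dnmt3a;Tnfr2KO against Dnmt3a it called 0 (0.94% of all genes), with Fcer1a at an unadjusted p below 0.05 and 0 by DESeq2 (7.31% of all genes). In Dnmt3a;Tnfr2KO against Tnfr1KO-labelled it called 0 (0.198% of all genes), again with Fcer1a at an unadjusted p below 0.05 and 0 by DESeq2 (0.588% of all genes). Of all 15640 genes, 3089, 3644 and 625 had an unadjusted p below 0.05 in these 3 comparisons.

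The other 7 genes overlapped between all groups in these sums. Ms4a2 ranged from 8.15 to 13.6 CPM in MxCre, 8.46 to 18.8 in Dnmt3a, 7.41 to 12.1 in the Tnfr1KO-labelled libraries and 6.74 to 21.5 in Dnmt3a;Tnfr2KO. Cpa3 ranged from 27.03 to 146 CPM within Dnmt3a;Tnfr2KO alone. Prss34 ranged from 1 UMI (0.011 CPM) to 45.6 CPM within Dnmt3a, and Cma1 from 1.68 to 30.3 CPM within MxCre, so for these 2 genes the spread between mice of a group was larger than any difference between group means. Hdc and Mcpt8, most of whose UMIs came from the granulocyte gates, had group means of 42.4 to 53.9 and 47.1 to 58.3 CPM.

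**Figure D3:**
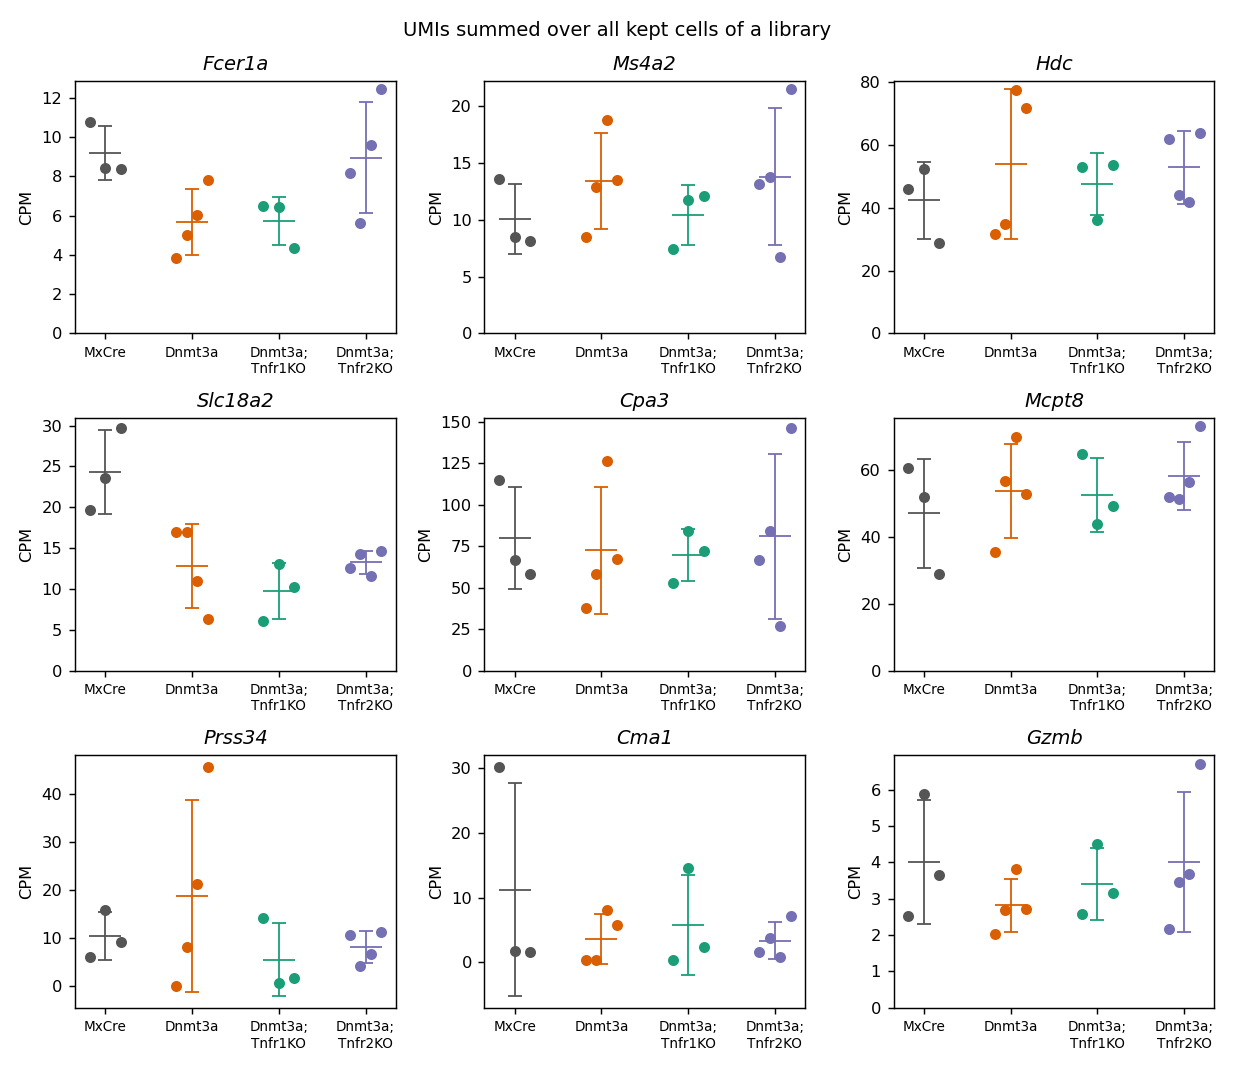
CPM of each gene summed over all kept cells, 1 point per library, with the mean (dash) and SD (bar) of each group on a linear axis. Fcer1a and Slc18a2 are the 2 genes whose MxCre and Dnmt3a points do not overlap, a gap that is absent without TMM scaling. Prss34 in Dnmt3a (18.7 ± 19.9 CPM, n = 4) and Cma1 in MxCre (11.2 ± 16.5 CPM, n = 3) have SDs larger than their means.

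Leaving the basophil/mast cell progenitor-like cells out of the sums, Fcer1a was higher in Dnmt3a;Tnfr2KO than in Dnmt3a. It was at 6.04, 3.60, 8.12 and 8.30 CPM in Dnmt3a;Tnfr2KO and at 2.22, 3.13, 2.93 and 2.35 CPM in Dnmt3a, without overlap (log2 difference 1.29, SE 0.28, adjusted p = 0.0484 by edgeR's quasi-likelihood test, where 0.929% of all genes were called). The MxCre libraries were at 6.93, 4.90 and 5.71 CPM, all above Dnmt3a (log2 difference of Dnmt3a from MxCre -1.14, adjusted p = 0.0569 by the same test). This fit was an alternative to the one over all cells, in which Fcer1a was not called. Leaving out the class removed 150 of 348, 153 of 399, 443 of 845 and 630 of 894 Fcer1a UMIs in the Dnmt3a libraries. In Dnmt3a;Tnfr2KO it removed 251 of 946, 297 of 805, 148 of 954 and 581 of 1705. The removal thus took a larger part in every Dnmt3a library than in any of Dnmt3a;Tnfr2KO, and its part in the difference was not tested. It called no other of the 9 genes in the 4 comparisons, with 2.54%, 0.429% and 0.199% of all genes called in the other 3.

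Within the basophil/mast cell progenitor-like class, where levels no longer depend on the number of such cells, edgeR called 0 of the 9 genes in each of the 4 comparisons. The share of all 7670 genes called was 0.391% in Dnmt3a against MxCre, 0.522% in Tnfr1KO-labelled against Dnmt3a, 0.339% in Dnmt3a;Tnfr2KO against Dnmt3a and 0% in Dnmt3a;Tnfr2KO against Tnfr1KO-labelled. At an unadjusted p below 0.05 there were 4 genes (Fcer1a, Cpa3, Cma1 and Gzmb), 3 (Cpa3, Cma1 and Gzmb), 3 (Fcer1a, Cpa3 and Gzmb) and 0 of the 9 in that order, and DESeq2 called 0, 1 (Gzmb), 0 and 0, where it called 7.14%, 3.8%, 6.89% and 0% of all genes. Of all 7670 genes, 827, 775, 804 and 300 had an unadjusted p below 0.05 in the 4 comparisons. All 9 estimates were below 0 in Dnmt3a against MxCre, with a median log2 difference of -0.62 (0.01 over all genes), and all 9 were above 0 in Tnfr1KO-labelled against Dnmt3a, with a median of 0.69 (0.00 over all genes). The medians were 0.49 in Dnmt3a;Tnfr2KO against Dnmt3a and -0.21 in Dnmt3a;Tnfr2KO against Tnfr1KO-labelled. The first 3 of these comparisons share the Dnmt3a libraries, so their directions are not separate findings. Depth moved with them, and its part was not tested. The median UMIs per cell of the class averaged 23813 in the Dnmt3a libraries and 16988.5 in MxCre. They averaged 17259.3 in the Tnfr1KO-labelled libraries and 14420.9 in Dnmt3a;Tnfr2KO. The sign of Cma1 in Tnfr1KO-labelled against Dnmt3a rests on 1 library, as it was -0.28 without Tnfr1KO-labelled replicate 2.

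Gzmb came nearest to the threshold. In the class it was at 109.9, 146, 131 and 157 CPM in Dnmt3a and at 414, 529.9 and 394 CPM in the Tnfr1KO-labelled libraries, with no overlap and 62 to 544 Gzmb UMIs per library over all groups. A Gzmb UMI was found in 6.25% to 21.5% of the 32 to 127 class cells per Dnmt3a library. In the Tnfr1KO-labelled libraries it was found in 25.8% to 41.9% of 21 to 31 cells, so these levels rest on few cells. The log2 difference was 1.72 (SE 0.40, adjusted p = 0.0538 by edgeR's quasi-likelihood test), and DESeq2 gave an adjusted p of 0.0441. MxCre was at 108, 535 and 247 CPM and Dnmt3a;Tnfr2KO at 106, 223, 534 and 319 CPM, and both spanned the gap between the other 2 groups. Depth separated the same 2 groups, with median UMIs per cell of the class of 18479 to 32045 in Dnmt3a and 16470 to 18216 in the Tnfr1KO-labelled libraries, and its part in the difference was not tested.

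Cpa3 was at 713, 991, 1349 and 2099 CPM in Dnmt3a, 1827, 2209 and 1908 CPM in MxCre, 1569, 2735 and 1965 CPM in the Tnfr1KO-labelled libraries and 1751, 1744, 1724 and 1995 CPM in Dnmt3a;Tnfr2KO. Thus 3 of the 4 Dnmt3a libraries were below every library of the other groups, and replicate 4 was not. Without replicate 4, Cpa3 was called lower in Dnmt3a than in MxCre (log2 difference -0.96, adjusted p = 0.0433 by edgeR's quasi-likelihood test) and higher in Tnfr1KO-labelled than in Dnmt3a (1.04, adjusted p = 0.0257 by the same test). With 1 class marker fewer the first difference turned to 0.17 and the second was 0.095. Fcer1a in the class was at 109, 192, 173 and 406 CPM in Dnmt3a against 280.3, 513 and 593 CPM in MxCre (log2 difference -1.05, SE 0.36, adjusted p = 0.29 by edgeR's quasi-likelihood test). Again Dnmt3a replicate 4 was the library that overlapped with MxCre. Without it, Fcer1a passed the threshold, at a log2 difference of -1.53 (adjusted p = 0.0481 by the same test). Depth moved with this, as the median UMIs per cell of the class were 18479 to 32045 in the Dnmt3a libraries and 14279.5 to 20238 in MxCre. With markers counted at 5000 UMIs per cell the class held 3 to 20 cells per library of these 2 groups, and Fcer1a averaged 724 CPM in Dnmt3a and 679.7 CPM in MxCre, with overlap.

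The basophil proteases and the chymase varied most. Prss34 in the class was at 422, 2270.2 and 1960.2 CPM in MxCre, at 0, 792, 1094 and 3126 CPM in Dnmt3a, at 4655, 49.8 and 237 CPM in the Tnfr1KO-labelled libraries and at 1156, 406, 2418 and 666 CPM in Dnmt3a;Tnfr2KO. In the library with 0 UMIs, Dnmt3a replicate 1, the 32 cells of the class gave 1215267 UMIs, which allows a level of up to 2.47 CPM by counting error alone. Mcpt8 in that library was at 86.6 CPM, against 566 CPM or more in each of the other 13 libraries. Cma1 in the class was highest in MxCre replicate 1 (1263 CPM) and Tnfr1KO-labelled replicate 2 (2149.5 CPM) and lowest in Tnfr1KO-labelled replicate 1 (10.2 CPM, 3 UMIs). Tnfr1KO-labelled replicate 1 had the highest Prss34 and the lowest Cma1 of all libraries, and replicate 2 of the same group the highest Cma1 and the lowest Prss34 above 0.

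**Figure D4:**
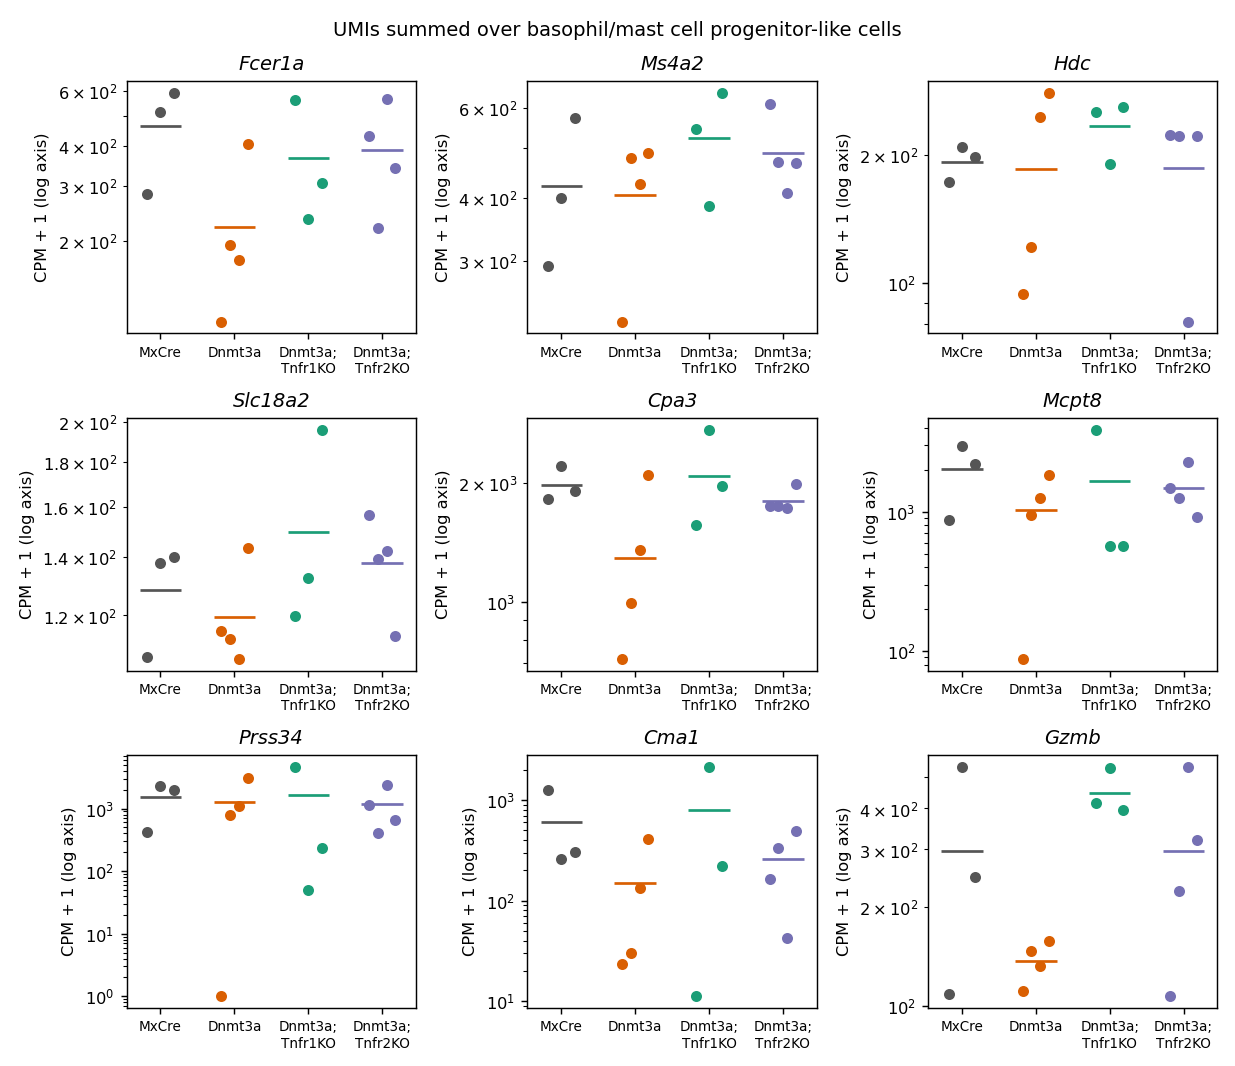
CPM + 1 of each gene within the basophil/mast cell progenitor-like class, 1 point per library on a logarithmic axis, with the group mean as a dash. Gzmb is the gene whose Dnmt3a and Tnfr1KO-labelled points do not overlap, Dnmt3a replicate 1 has no Prss34 and the lowest Mcpt8, and the groups of Prss34, Cma1 and Mcpt8 overlap throughout.

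Slc18a2, Ms4a2 and Hdc were not among the genes with an unadjusted p below 0.05 in the class. Slc18a2 lay between 106 and 195 CPM in all 14 libraries, and its group means were 127, 119, 148 and 137 CPM in MxCre, Dnmt3a, Tnfr1KO-labelled and Dnmt3a;Tnfr2KO. Ms4a2 had group means of 421, 404, 523 and 488 CPM in the same order, each with an SD of 85.2 CPM or more. Hdc had group means of 192, 185, 233 and 186 CPM, and its lowest libraries were Dnmt3a;Tnfr2KO replicate 3 at 80.1 CPM and Dnmt3a replicate 1 at 93.1 CPM.

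In the other classes 4 differences passed the test, 3 of Fcer1a and 1 of Slc18a2, and 3 of the 4 lay in the Gata2-positive gate. There Fcer1a was at 45.1, 44.8 and 66.2 CPM in MxCre, at 10.5, 18.02, 19.3 and 31.7 CPM in Dnmt3a, at 68.0, 29.6 and 27.9 CPM in the Tnfr1KO-labelled libraries and at 70.7, 32.1, 91.0 and 53.6 CPM in Dnmt3a;Tnfr2KO. The Dnmt3a libraries lay below all MxCre and all Dnmt3a;Tnfr2KO libraries and overlapped with the Tnfr1KO-labelled ones. The log2 difference of Dnmt3a from MxCre was -1.41 (SE 0.36, adjusted p = 0.0435 by edgeR's quasi-likelihood test) and that of Dnmt3a;Tnfr2KO from Dnmt3a 1.65 (SE 0.33, adjusted p = 0.0220 by the same test). Tnfr1KO-labelled against Dnmt3a gave 1.10 (SE 0.36, adjusted p = 0.13 by the same test). Slc18a2 in the gate was at 48.7, 64.4 and 69.8 CPM in MxCre and at 42.1, 45.3, 43.0 and 30.7 CPM in Dnmt3a (-0.57, SE 0.15, adjusted p = 0.0442 by the same test). Of the 9 genes tested in the gate, 2 were called in Dnmt3a against MxCre (2.78% of all genes), 0 in Tnfr1KO-labelled against Dnmt3a (1.69%), 1 in Dnmt3a;Tnfr2KO against Dnmt3a (1.25%) and 0 in Dnmt3a;Tnfr2KO against Tnfr1KO-labelled (0.17%). DESeq2 gave the same numbers, 2, 0, 1 and 0, and called 6.05%, 5.56%, 2.06% and 0.241% of all genes. At an unadjusted p below 0.05 there were 2, 2, 5 and 2 of the 9, and 2135, 1933, 1739 and 815 of all 11164 genes.

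Depth and Gata2 itself moved with these results. The gate asks for 2 Gata2 UMIs, which a deeper cell reaches at a lower level. Median UMIs per cell in the gate were 15836 to 20175 in MxCre, 19345 to 32776 in Dnmt3a, 15352 to 24552 in the Tnfr1KO-labelled libraries and 10652.5 to 19014 in Dnmt3a;Tnfr2KO, and the Gata2 level of the gate was 155 to 199 CPM in Dnmt3a against 221 to 248 in MxCre and 218 to 275 in Dnmt3a;Tnfr2KO. With markers counted after each cell was thinned to 5000 UMIs, the gate held 36 to 239 cells per library. Fcer1a in it was at 114, 95.6 and 236 CPM in MxCre, 51.2, 40.6, 58.8 and 151 CPM in Dnmt3a and 124, 58.9, 173 and 96.3 CPM in Dnmt3a;Tnfr2KO, with log2 differences of -1.11 for Dnmt3a from MxCre (adjusted p = 0.28 by edgeR's quasi-likelihood test) and 0.72 for Dnmt3a;Tnfr2KO from Dnmt3a (adjusted p = 0.59 by the same test). Slc18a2 in it had a log2 difference of -0.00 for Dnmt3a from MxCre (adjusted p = 0.997 by the same test). In the 14 fits at full depth that left out 1 library, Fcer1a in Dnmt3a against MxCre was called in 6 (-1.69 to -1.20), lost without any 1 MxCre library, Dnmt3a replicate 1, 2 or 3 or Tnfr1KO-labelled replicate 2 or 3. With doublets kept it was -1.26 (adjusted p = 0.0658 by the same test). Its call in Dnmt3a;Tnfr2KO against Dnmt3a held in 10 of the 14 (1.42 to 1.93), lost without Dnmt3a replicate 1 or 3 or Dnmt3a;Tnfr2KO replicate 1 or 3. Slc18a2 in Dnmt3a against MxCre was called in 4 of the 14 (-0.73 to -0.44), those without Dnmt3a replicate 2 or Dnmt3a;Tnfr2KO replicate 1, 3 or 4, and was not called without TMM scaling (-0.43, adjusted p = 0.105 by edgeR's quasi-likelihood test) or with doublets kept (-0.53). None of the 9 genes was called in the thinned gate, where 0.89%, 0.55%, 0.539% and 0.022% of all genes were called in the 4 comparisons.

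**Figure D5:**
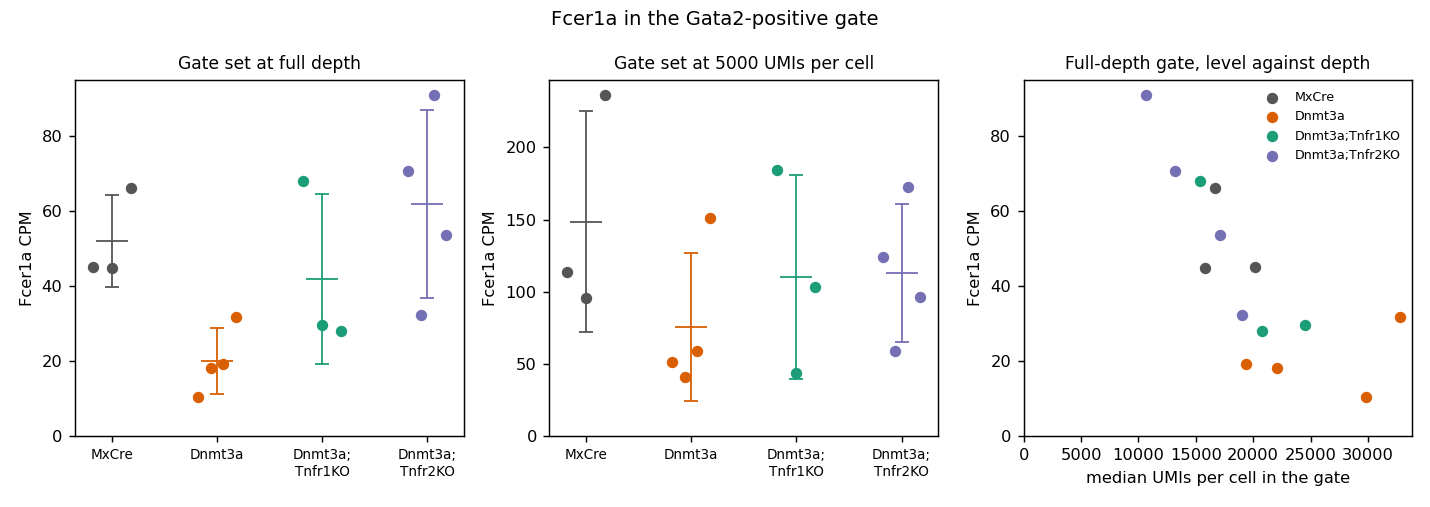
Fcer1a CPM in the Gata2-positive gate, 1 point per library with group mean (dash) and SD (bar), with the gate set at full depth (left) and at 5000 UMIs per cell (middle), and the full-depth level against the median UMIs per cell of the gate (right), all on linear axes. The Dnmt3a points lie below MxCre and Dnmt3a;Tnfr2KO at full depth, at 10.5 to 31.7 CPM on TMM-scaled sizes. Without that scaling they overlap with Dnmt3a;Tnfr2KO. They overlap with both once the gate is set at 5000 UMIs, and libraries with more UMIs per cell tend to have lower levels.

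The fourth call was Fcer1a in the Gata2-low gate, at low levels. It was at 0.320, 0.503, 0.850 and 0.156 CPM in Dnmt3a (2 to 33 UMIs per library) and at 2.87, 0.640, 6.36 and 3.31 CPM in Dnmt3a;Tnfr2KO (16 to 193 UMIs), with overlap (log2 difference 2.67, SE 0.61, adjusted p = 0.0399 by edgeR's quasi-likelihood test, 1.54% of all genes called). Erythroid progenitor-like cells, which should lack the gene, had 0.139 to 4.58 CPM in Dnmt3a and 0.471 to 2.28 CPM in Dnmt3a;Tnfr2KO. The Dnmt3a levels of the gate were therefore not above background, while 3 of the 4 Dnmt3a;Tnfr2KO libraries lay above the erythroid range of their group, and the size of the fold is not read. In the other 3 comparisons in this gate 0 of the 7 tested genes were called (3.76% of all genes in Dnmt3a against MxCre, 3.05% in Tnfr1KO-labelled against Dnmt3a, 0.231% in Dnmt3a;Tnfr2KO against Tnfr1KO-labelled). DESeq2 also called Fcer1a in Dnmt3a;Tnfr2KO against Dnmt3a in this gate, where it called 6.71% of all genes. With doublets kept the difference was 2.54 (adjusted p = 0.0548 by edgeR's quasi-likelihood test). The edgeR call held in 6 of the 14 fits that left out 1 library (2.14 to 3.34), and was lost without MxCre replicate 2, Dnmt3a replicate 1 or 4, Tnfr1KO-labelled replicate 2 or 3 or Dnmt3a;Tnfr2KO replicate 1, 3 or 4. With the gate set at 5000 UMIs the difference was 1.08 (adjusted p = 0.0516 by the same test), and Fcer1a was then called lower in Dnmt3a than in MxCre, at -1.33 (adjusted p = 0.0284 by the same test, 4.38% of all genes called, with 4.97%, 2.34% and 0.353% in the other 3 comparisons), where the gate at full depth had given -1.72 (adjusted p = 0.16 by the same test). The Dnmt3a levels there were 1.63, 1.81, 2.02 and 4.03 CPM without TMM scaling. On that scale erythroid progenitor-like cells reached 3.02 CPM over all 14 libraries. Only Dnmt3a replicate 4 lay above this, so the size of this fold is not read either. That gate held 923 to 3509 cells per Dnmt3a library, against 324 to 1504 at full depth. In the remaining classes none of the tested genes was called, with 5 to 7 of the 9 tested per class. In the 4 comparisons, in the order above, edgeR called 3.5%, 2.88%, 3.35% and 0.237% of all genes in the Cebpe-positive gate and 0.502%, 0.727%, 2.04% and 0.147% in monocyte progenitor-like cells. The shares were 4.47%, 0.783%, 0.542% and 0.138% in HSC/MPP-like cells and 0%, 0.0284%, 0.0851% and 0.0473% in erythroid progenitor-like cells. At an unadjusted p below 0.05 there were 0 to 3 of the 9 genes per class and comparison, where 152 to 3249 of all genes were. DESeq2 called 1 in Dnmt3a against MxCre in HSC/MPP-like cells (6.14% of all genes) and 1 in Tnfr1KO-labelled against Dnmt3a in the Cebpe-positive gate (7.71%).

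In HSC/MPP-like cells Fcer1a was at 9.14, 7.29 and 4.34 CPM in MxCre, 6.61, 6.71, 1.05 and 0 CPM in Dnmt3a, 15.0, 16.1 and 9.07 CPM in the Tnfr1KO-labelled libraries and 9.503, 7.90, 22.1 and 7.11 CPM in Dnmt3a;Tnfr2KO. On these TMM-scaled levels Dnmt3a lay below both receptor groups without overlap. Without TMM scaling Dnmt3a replicate 1 (7.64 CPM) lay above Dnmt3a;Tnfr2KO replicate 4 (7.02 CPM). Dnmt3a replicates 3 and 4 had 5 and 0 Fcer1a UMIs. The adjusted p was 0.15 for Tnfr1KO-labelled against Dnmt3a and 0.28 for Dnmt3a;Tnfr2KO against Dnmt3a by edgeR's quasi-likelihood test. Mcpt8 in these cells was at 4.51, 2.89 and 0.680 CPM in MxCre and 7.61, 7.69, 5.27 and 6.63 CPM in Dnmt3a (log2 difference 1.41, SE 0.41, adjusted p = 0.0572 by the same test), without overlap. It passed the threshold with markers counted at 5000 UMIs (1.81, adjusted p = 0.0320 by the same test), without TMM scaling (1.52, adjusted p = 0.0401 by the same test) and by DESeq2 (1.36, adjusted p = 0.0396). With 1 library left out, it passed without MxCre replicate 1 (2.21) or Dnmt3a;Tnfr2KO replicate 4 (1.42). Hdc, also not called in the main fit of this comparison, passed without TMM scaling (1.54, adjusted p = 0.0383 by edgeR's quasi-likelihood test). It also passed without Dnmt3a replicate 1 (1.72, adjusted p = 0.0414 by the same test). Slc18a2, the member most abundant there, was at 53.7, 73.3 and 61.2 CPM in MxCre and 62.9, 48.9, 32.3 and 45.9 CPM in Dnmt3a (adjusted p = 0.23 by the same test).

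Related genes from 5 lists were tested in the same fits. The lists were 16 IgE receptor partners and signalling genes, 19 other granule proteases and storage genes, 10 lipid mediator enzymes, 12 cytokines and chemokines and 19 lineage receptors and transcription factors. Over all cells, 69 of these 76 genes were tested and 1 was called in 1 comparison, Itga2b (the integrin CD41) in Dnmt3a against MxCre, where 2.38% of all genes were called. It was at 17.9, 28.8, 13.2 and 8.44 CPM against 34.4, 44.6 and 58.1 CPM (log2 difference -1.42, SE 0.31, adjusted p = 0.0410 by edgeR's quasi-likelihood test). None of the 16 signalling genes, the 10 lipid mediator enzymes or the 12 cytokines passed over all cells. The nearest were Tbxas1, thromboxane synthase (-0.88, adjusted p = 0.0525), and Lat, the adaptor downstream of the IgE receptor (-1.13, adjusted p = 0.0534), both by the same test in Dnmt3a against MxCre. The Itga2b call held in 4 of the 14 fits that left out 1 library (-1.79 to -1.20), so it was lost without any 1 of 10 libraries, among them each MxCre library. Itga2b was at 320.4 CPM in megakaryocyte progenitor-like cells and 21.03 CPM in all other cells, and the share of those cells differed between the 2 groups as given above. Its part in the call was not tested.

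In the basophil/mast cell progenitor-like class 57 of the 76 genes were tested, and 1 was called in each of Dnmt3a against MxCre (0.391% of all genes) and Tnfr1KO-labelled against Dnmt3a (0.522%). This was Mcpt4 in both. Mcpt4, a mast cell chymase beside Cma1, was called lower in Dnmt3a than in MxCre (log2 difference -5.84, SE 1.17, adjusted p = 0.0234 by edgeR's quasi-likelihood test) and higher in Tnfr1KO-labelled than in Dnmt3a (5.25, SE 1.20, adjusted p = 0.0483 by the same test). It was at 799, 0 and 192 CPM in MxCre, at 0, 0, 14.8 and 2.58 CPM in Dnmt3a, at 0, 582 and 90.2 CPM in the Tnfr1KO-labelled libraries and at 0, 30.9, 0 and 94.9 CPM in Dnmt3a;Tnfr2KO. The groups overlapped at 0, and the 2 libraries with the most Mcpt4, MxCre replicate 1 and Tnfr1KO-labelled replicate 2, were also the 2 with the most Cma1. Leaving out 1 library at a time, the first call held in 10 of 14 fits and was lost without MxCre replicate 1 or Dnmt3a replicate 1, 2 or 4 (log2 -8.20 to -3.92), and the second held in 6 of 14 (3.05 to 7.61). DESeq2 called neither. No other gene of the 5 lists was called in the class.

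In the Gata2-positive gate 59 of the 76 genes were tested. Of these, 4 were called in Dnmt3a against MxCre (2.78% of all genes), 0 in Tnfr1KO-labelled against Dnmt3a (1.69%), 4 in Dnmt3a;Tnfr2KO against Dnmt3a (1.25%) and 1 in Dnmt3a;Tnfr2KO against Tnfr1KO-labelled (0.17%). Gata1, the erythroid, megakaryocyte and mast cell transcription factor, was at 17.7, 27.02, 28.1 and 18.5 CPM in Dnmt3a, 44.8, 39.6 and 39.5 CPM in MxCre, 24.0, 24.7 and 20.9 CPM in the Tnfr1KO-labelled libraries and 38.2, 41.7, 40.5 and 38.4 CPM in Dnmt3a;Tnfr2KO. It was called lower in Dnmt3a than in MxCre (log2 difference -0.85, SE 0.15, adjusted p = 0.00871 by edgeR's quasi-likelihood test) and higher in Dnmt3a;Tnfr2KO than in Dnmt3a (0.78, SE 0.14, adjusted p = 0.00883 by the same test). Itga2b was called in the same 2 comparisons and directions (-0.79 and 0.75). Irf8, a monocyte transcription factor, was higher in Dnmt3a than in MxCre (1.07) and Cd63, a granule membrane protein, lower (-0.66). In Dnmt3a;Tnfr2KO against Dnmt3a, Gata2 was higher (0.49) and Ctsg, the neutrophil and mast cell protease cathepsin G, lower (-0.58), and Ctsg was also lower in Dnmt3a;Tnfr2KO than in Tnfr1KO-labelled (-0.80). Gata2 defines the gate and Ctsg and Irf8 are class markers, so these 3 are tied to the gating. Leaving out 1 library at a time, the calls in Dnmt3a against MxCre held in 13 of 14 fits for Gata1 (-0.98 to -0.74; lost without MxCre replicate 1), 10 for Irf8 (0.97 to 1.37), 9 for Cd63 (-0.72 to -0.51) and 8 for Itga2b (-0.95 to -0.70), the last 3 being lost, among others, without any 1 MxCre library. In Dnmt3a;Tnfr2KO against Dnmt3a they held in 14 for Gata1 (0.68 to 0.91), 11 for Ctsg (-0.67 to -0.50), 9 for Itga2b (0.66 to 0.91) and 3 for Gata2 (0.43 to 0.56), and the Ctsg call against Tnfr1KO-labelled held in 14 (-0.88 to -0.71). With doublets kept, the calls of Irf8, of Ctsg in both comparisons, of Gata2 and of Itga2b in Dnmt3a;Tnfr2KO against Dnmt3a were lost, and that of Gata2 also without TMM scaling. With the gate set at 5000 UMIs none of the 76 genes was called in any of the 4 comparisons, with log2 differences for Gata1 of -0.28 and 0.15 in the 2 comparisons above. The part of depth in the full-depth calls was not tested beyond this.

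In HSC/MPP-like cells 58 of the 76 genes were tested, and 7 were called in Dnmt3a against MxCre, against 4.47% of all genes. The chemokine Ccl9, Ctsg, Ikzf2 and Irf8 were higher in Dnmt3a, and Cd63, Ptgs1 (cyclooxygenase 1) and Tbxas1 lower. Leaving out 1 library at a time, the calls of Ccl9 (log2 1.58 to 2.09) and Ctsg (1.38 to 2.18) held in all 14 fits. Those of Cd63 and Tbxas1 held in 12, that of Ptgs1 in 11, that of Ikzf2 in 8 (0.48 to 0.65) and that of Irf8 in 7 (0.89 to 1.38), and each of these 5 was lost without MxCre replicate 2 or 3. Irf8 was also not called with doublets kept, and neither Irf8 nor Tbxas1 with markers counted at 5000 UMIs. In Tnfr1KO-labelled against Dnmt3a, 1 gene, the chemokine Ccl3, was called higher (0.783% of all genes were called). That call held in 8 of the 14 fits (1.72 to 2.34), and was lost with DESeq2, without TMM scaling and with markers counted at 5000 UMIs.

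In the Gata2-low gate 59 of the 76 genes were tested. Itga2b, Gata1 and Cd63 were called lower in Dnmt3a than in MxCre (3.76% of all genes called). These calls held with 1 library left out in 11 (Itga2b, -1.50 to -1.15), 1 (Gata1, -1.64 to -0.99) and 11 (Cd63, -0.91 to -0.67) of 14 fits. In Dnmt3a;Tnfr2KO against Dnmt3a, where 1.54% of all genes were called, Itga2b, Gata1 and Gata2 were called higher, in 11 (0.94 to 1.21), 2 (1.14 to 1.63) and 2 (0.60 to 0.89) of 14 fits. Gata2 sets the gate. With markers counted at 5000 UMIs the calls of Itga2b, Gata1 and Gata2 were lost in these comparisons. Pla2g4a was called lower in Tnfr1KO-labelled than in Dnmt3a, in 1 of 14 fits (-0.51 to -0.34), where 3.05% of all genes were called.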

How the data were processed

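Droplet 3' single-cell RNA-seq was made from 14 mice. The authors' deposited UMI counts per gene and barcode came from the authors' run of Cell Ranger 6.0.0, which the file headers name, and the genome was mm10, per the submitters' processing notes. Cells with at least 1000 UMIs, 500 genes and under 10% mitochondrial UMIs were kept, and called doublets were removed (3143 of 70038). A class took the marker set with the most detected markers, at least 3 and without ties, and the basophil/mast cell set came first at 4 markers. This scoring was set after the matrices were seen, and the 9 genes and all lists were chosen with earlier results of these data known. The genes named in full are the 9 listed genes, and of the related lists those called or nearest to the threshold.

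Counts were summed per mouse and class (at least 20 cells) and tested with edgeR 4.0.16 (TMM, filterByExpr, quasi-likelihood, 1 model over the 4 groups, Benjamini-Hochberg adjustment over all genes, threshold 0.05). DESeq2 1.42.0 was an alternative. Class shares were compared by exact two-sided permutation tests. On simulated data of 15640 genes for Dnmt3a against MxCre, 70 of 100 genes changed by 2-fold and 100 of 100 changed by 4-fold were recovered, with 7 false calls. That is the gene number of the sums over all kept cells, so these rates do not carry over to the class sums. Positions come from the RefSeq table of GRCm38.p6. Intervals and floors cover counting error only. The genes most like Mcpt8 are not reported here.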

Additional observations from a re-analysis of the deposited data

Results flagged for a closer look

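Of 56 groups of 4 libraries examined, 5 had a library far from the other 3, and chance alone gives about 1 in 20. In the basophil/mast cell progenitor-like class, Hdc was at 80.1 CPM in Dnmt3a;Tnfr2KO replicate 3, far below the other 3 of that group, and Cpa3 was at 1995 CPM in Dnmt3a;Tnfr2KO replicate 4, above the other 3. In the Gata2-positive gate, Mcpt8 was at 143 CPM and Prss34 at 92.3 CPM in Dnmt3a;Tnfr2KO replicate 1, both far above the other 3. Cma1 in the same gate was at 0.779 CPM in Dnmt3a replicate 3 and at 0 in the other 3 Dnmt3a libraries.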

How the results depend on the processing

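The share of basophil/mast cell progenitor-like cells kept its direction under each alternative tried, and 3 of its 4 comparisons cannot reach the threshold of 0.05, since 3 against 4 mice allow no p below 0.0571. With 1 library left out, its differences ranged from 0.380 to 0.939 (Dnmt3a against MxCre), -1.12 to -0.749 (Tnfr1KO-labelled against Dnmt3a), -0.914 to -0.478 (Dnmt3a;Tnfr2KO against Dnmt3a) and 0.0435 to 0.444 (Dnmt3a;Tnfr2KO against Tnfr1KO-labelled). Tnfr1KO-labelled against Dnmt3a was -2.33 points with 1 marker fewer, -0.522 with 1 more and -0.126 with cells thinned to 5000 UMIs, and Dnmt3a;Tnfr2KO against Dnmt3a was -2.01, -0.379 and -0.103 points. The thinned class held 3 to 20 cells per library, and the Dnmt3a and Tnfr1KO-labelled shares then overlapped.

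Over all cells the number of the 9 genes called went from 0 to 1 with DESeq2 (Dnmt3a against MxCre) and to 1 without the class (Dnmt3a;Tnfr2KO against Dnmt3a), and was 0 without any 1 library. In the class it was 5, 5, 3 and 1 in the 4 comparisons without a filter on low counts, where 0.832%, 1.1%, 1.15% and 0.298% of 16101 genes were called. That fit gave Cma1 an adjusted p of 8.25e-37 in Tnfr1KO-labelled against Dnmt3a by edgeR's quasi-likelihood test. The Tnfr1KO-labelled libraries ran from 9.49 to 2086 CPM without TMM scaling. Such a p-value does not measure the spread between mice, so the unfiltered calls are not read. In Tnfr1KO-labelled against Dnmt3a the number called was 1, Gzmb, with DESeq2, with only the 2 groups (0.438% of all genes) or with doublets kept (0.408%). Leaving out 1 library gave 0 to 2 in Dnmt3a against MxCre and 0 to 1 in Tnfr1KO-labelled against Dnmt3a. In the other classes the count went from 2 to 0 with doublets kept and to 3 with DESeq2 or without TMM (Dnmt3a against MxCre). DESeq2 called 5.05% to 9.14% of all genes per class there. In Dnmt3a;Tnfr2KO against Dnmt3a it went from 2 to 1 with doublets kept and to 0 with markers counted at 5000 UMIs (0.0685% to 2.34% of all genes per class). In Tnfr1KO-labelled against Dnmt3a it went from 0 to 1 with DESeq2 or without TMM, Slc18a2 in the Cebpe-positive gate (7.71% of all genes by DESeq2). The shares of all genes in these classes with doublets kept or without TMM are not reported here. Leaving out 1 library gave 0 to 3, 0 to 1, 0 to 2 and 0 to 1 in the 4 comparisons. The causes were not tested.

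Same-numbered libraries did not deviate together (correlations of -0.224 to 0.236), so the numbers were not taken as pairs. The fit with a replicate block leaves out the 2 libraries numbered 4, among them Dnmt3a replicate 4. With it, 2 of the 9 genes were called in the class in Dnmt3a against MxCre (Cpa3 and Fcer1a; 0.621% of all genes) and 2 in Tnfr1KO-labelled against Dnmt3a (Cpa3 and Gzmb; 0.881%). In the other classes the block gave 1 in Dnmt3a against MxCre and 1 in Dnmt3a;Tnfr2KO against Dnmt3a, both Fcer1a in the Gata2-positive gate, and Slc18a2 in that gate and Fcer1a in the Gata2-low gate were not called. Among the related genes, it ended the calls of Cd63, Itga2b, Gata2 and, in Dnmt3a;Tnfr2KO against Dnmt3a, Ctsg in the Gata2-positive gate, of Cd63, Gata1, Gata2 and Pla2g4a in the Gata2-low gate, of Mcpt4 in the class, and of Ikzf2 and Ccl3 in HSC/MPP-like cells.

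Of 136 differences of the 9 genes, 7 changed sign by more than noise under some setting, none of them a called one. Cma1 in the class (Tnfr1KO-labelled against Dnmt3a) ranged from -0.28 (without Tnfr1KO-labelled replicate 2) to 3.62 when 1 library was left out, and Cpa3 (Dnmt3a against MxCre) was 0.17 with 1 marker fewer. In the Gata2-positive gate set at 5000 UMIs, Prss34 was 0.62 in Tnfr1KO-labelled against Dnmt3a and -1.61 in Dnmt3a;Tnfr2KO against Tnfr1KO-labelled. There Slc18a2 was -0.22 in Dnmt3a;Tnfr2KO against Dnmt3a and -0.21 in Dnmt3a;Tnfr2KO against Tnfr1KO-labelled, and Ms4a2 was -0.028 in Dnmt3a;Tnfr2KO against Dnmt3a. With 1 marker more, levels in the class were 259 (Hdc), 2576 (Cpa3), 991 (Cma1), 2353 (Prss34) and 2317 CPM (Mcpt8), as means over 5 libraries in place of 14, against 193, 1711, 403, 1337 and 1455 CPM (all without TMM scaling), and no test was run because too few libraries had 20 cells.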
